A study of Saccharomyces cerevisiae with 12 samples.

Results

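The 3.5 h sample of a yeast sporulation time course was compared with time zero on 2 arrays. Both arrays carried RNA of Saccharomyces cerevisiae strain SK1, a background known for fast and synchronous sporulation. On the A array the 3.5 h RNA was labelled with Cy5 and the time-zero RNA with Cy3, and on the B array the dyes were exchanged. Genes were counted where both arrays agreed, that is, where the log2 ratio of 3.5 h over time zero was at least 1 (2-fold) in the same direction on each. A gene was held to be measured in a channel when its mean intensity lay above the 95th percentile of the blank spots (248 on A, 249 on B). Of 6293 genes on the array, 6266 had a ratio on both arrays.

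The series holds 12 samples between 0.0 and 6.0 h, each a pool of 6 cultures per the labels, and each sample was set against time-zero RNA on 2 arrays. Its 2.5, 4.0 and 4.5 h samples served as the neighbours of 3.5 h. A 3.0 h sample was not analysed here. By the labels, all groups share the strain and the time-zero RNA and differ in time alone. Their arrays also differed in quality. On the A arrays, 25.2% of genes were above the blanks in the 3.5 h channel and 59.2% in the 2.5 h channel. Since 3.5 h is 1 pooled sample, its A and B arrays are technical repeats by their labels and no test can be made from them by themselves. The arrays differed on many genes whose duplicate spots lay close together, as described below, and the files do not settle whether both carry the RNA that their labels name. Every value that joins the arrays rests on those labels.

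Sporulation is the response of starved diploid yeast, given acetate and no nitrogen source, in which cells replicate their DNA, recombine homologous chromosomes, divide in meiosis and wrap the products in spore walls. The kinase Ime2 and the transcription factor Ime1 start the programme. The transcription factor Ndt80 later switches on the middle genes, which serve the meiotic divisions and the first steps of spore formation. The cells live on respiration of acetate and make sugars by gluconeogenesis, so genes of glycolysis, the glyoxylate cycle and the respiratory chain report on their metabolism. Array ratios of whole cultures are means over all cells, and fewer cells that express a gene cannot be told apart from less RNA of it per cell.

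The 2 arrays differed in quality. The 3.5 h channel of the A array lay near its blanks, with a median of 225389 intensity units over genes against 184254 over blank spots. There 25.2% of genes were above the blanks, and 39.6% in the time-zero channel of that array. On the B array the 3.5 h channel had a gene median of 119105 against 18469 for blanks, and 73.7% of genes were above the blanks, with 78.2% in its time-zero channel. The 2 spots of a gene correlated across genes with r = 0.811 on A and r = 0.917 on B, whereas the ratios of A and B correlated with r = 0.291. Signs agreed for 3584 of 6266 genes (57.2%). Over the 1451 genes above the blanks in all 4 channels, r was 0.379 and 63.5% of signs agreed. Genes are not independent replicates, so these are descriptions. Before loess correction, the median log2 ratio on A ran from 1.83 in the dimmest of 4 equal groups of genes to -1.66 in the brightest, and on B from 0.68 to -0.89. Centring each array on its median, without loess, left 7 agreeing genes higher and 887 lower where the loess values gave 86 and 218.

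The direction of the B array rests on the labels, which give its Cy3 channel to the 3.5 h RNA. The file headers list the time-zero image first on both arrays, and before the B ratios were turned by sign the arrays correlated with r = -0.29. The column for 3.5 h in the authors' deposited table follows the turned mean of both arrays with r = 0.907 over 6135 genes.

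Both arrays put 86 genes higher at 3.5 h with the 3.5 h RNA above the blanks on each, which is 1.37% of the 6266 genes. They put 218 genes lower with the time-zero RNA above the blanks on each, which is 3.48%. Without the condition on blanks the counts were 110 (1.76%) and 257 (4.1%). Time-zero RNA hybridised against itself gave 0 genes either way under the same fold rule. The channels of those 0.0 h arrays had 78.7% to 88.1% of genes above the blanks, against 25.2% and 39.6% on A at 3.5 h. Their count of 0 therefore does not measure what signal near the blanks gives. The arrays opposed each other by at least 2-fold for 83 genes, 25 of them higher on A and lower on B and 58 the reverse. All 4 spots were past 2-fold for 72 of the higher and 174 of the lower genes. The smallest members just inside the limit were BUD20, at 1.00 on A and 1.17 on B, and BAP2, at -1.12 and -1.0. Just outside lay VPS71, at 0.997 and 1.06, and SFC1, at -0.995 and -3.98.

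**Figure D1:**
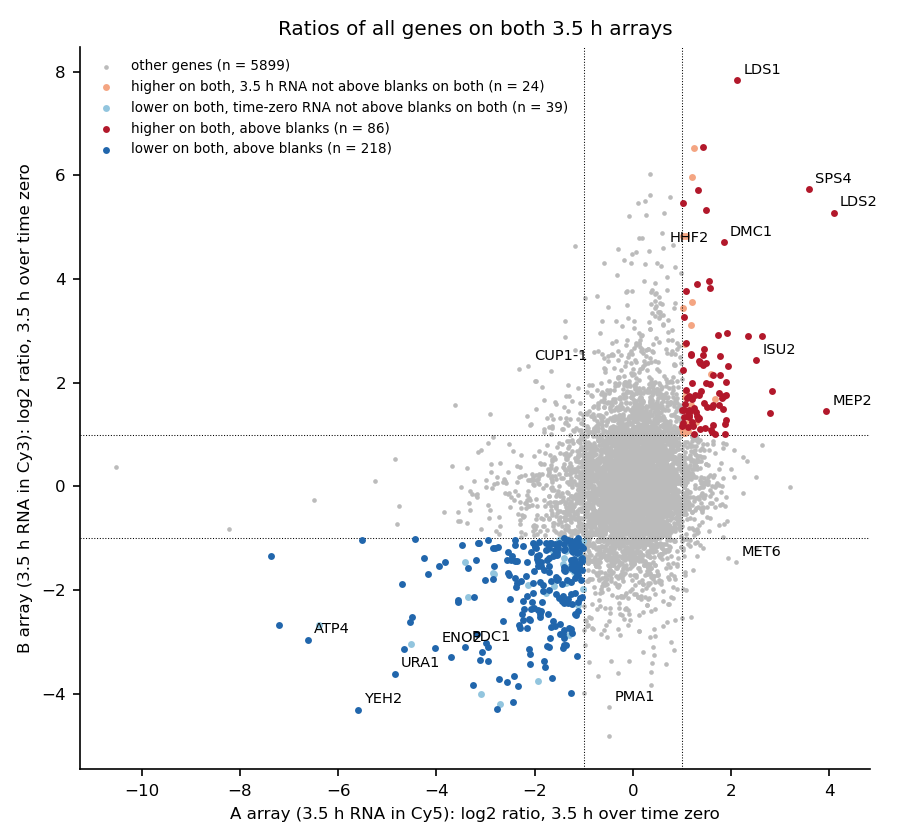
Each point is 1 gene, with its log2 ratio of 3.5 h over time zero on the A array (horizontal) and on the B array (vertical), and dotted lines mark 2-fold. The 86 red genes and 218 blue genes agree on both arrays and are above the blanks, while genes such as HHF2 and PMA1 were far from 0 on B and within 2-fold on A.

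The genes highest on both arrays included 3 sporulation genes. LDS2, a lipid droplet protein gene of the outer spore wall, had spots at 3.94 and 4.25 on A and at 3.64 and 6.92 on B. SPS4, a sporulation-specific gene, had spots at 3.55 and 3.61 on A and at 5.03 and 6.44 on B. LDS1, a paralogue of LDS2, had spots at 2.20 and 2.06 on A and at 7.76 and 7.93 on B. All 12 of these spots were past 4-fold. Time-zero RNA of the 3 genes was not above the blanks on either array, so the ratios above are not exact levels. Against the lowest measurable signal, the 2-array means of LDS2, SPS4 and LDS1 were 6.03-fold, 12.03-fold and 17.3-fold higher. These estimates join both arrays and are not limits for each, since LDS1 stood at 2.13 on A and 7.85 on B. RRT5 and IRC18, named after their values were seen, were the other 2 higher genes with unmeasured time-zero RNA. By the same 2-array estimate they were 14.7-fold and 8.60-fold higher.

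DMC1, the meiosis-specific recombinase, was measured in all 4 channels, with spots at 1.88 and 1.82 on A and at 4.74 and 4.67 on B. The size of its ratio thus differed between the arrays by far more than between spots. ISU2, a scaffold for iron-sulphur clusters in mitochondria, stood at 2.51 on A and 2.44 on B. CRS5, a copper-binding metallothionein, stood at 1.94 and 2.32, and ARG3, the ornithine carbamoyltransferase of arginine synthesis, at 2.84 and 1.85. ISU2 thus had nearly equal ratios on both arrays, while those of ARG3 lay further apart than its spots, at 2.92 and 2.75 on A and at 1.80 and 1.89 on B. PAU7, a seripauperin cell wall family gene, stood at 1.93 and 2.96, and YJR096W, an aldo-keto reductase gene, at 1.89 and 2.02. The last 3 of the 12 highest were LCL1, at 2.64 and 2.90, YNR014W, at 2.35 and 2.91, and YPR053C, at 1.78 and 2.15, for which no role is given here. Over the 86 genes the median of the 2-array mean was 1.66.

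The 12 lowest genes on both arrays included genes of lipid, pyrimidine and carbon metabolism and of protein synthesis. YEH2, a steryl ester hydrolase, had spots at -6.03 and -5.19 on A and at -4.35 and -4.26 on B. URA1, the dihydroorotate dehydrogenase of pyrimidine synthesis, stood at -4.84 on its 1 usable A spot and at -3.56 and -3.66 on B. GUT1, the glycerol kinase, stood at -3.71 on A and -3.29 on B. CYB2, which passes electrons from lactate to cytochrome c, stood at -3.25 and -3.84. For 11 of these 12 genes the 3.5 h RNA was above the blanks on B alone, and for RPL4B on neither array. Their low values on A are therefore not exact levels. Most had an A signal at 3.5 h below the median of the blank spots, 184254 units. Across the 12 genes it ran from 20679 for ATP4 to 266922 for FBP1. The nitric oxide dioxygenase gene YHB1 had nearly equal ratios on both arrays, at -2.98 on A and -3.01 on B. So did FBP1, the fructose-1,6-bisphosphatase of gluconeogenesis, at -3.07 and -3.19. The 3.5 h signal of YHB1 was 0.27 times the blank limit on A and 1.01 times on B. For FBP1 it was 0.78 and 4.46 times.

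Measurement at the low end limits the falls more than the rises. Of the 218 lower genes, the 3.5 h RNA was above the blanks on both arrays for 53, on 1 array for 147 and on neither for 18. Time-zero RNA was above the blanks on both arrays for 68 of the 86 higher genes. The median of the 2-array mean over the 218 was -1.87. Genes lower on both arrays had a median gene length of 1392 bases in the reference annotation, against 804 for the higher genes and 1248 for all genes with both ratios.

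**Figure D2:**
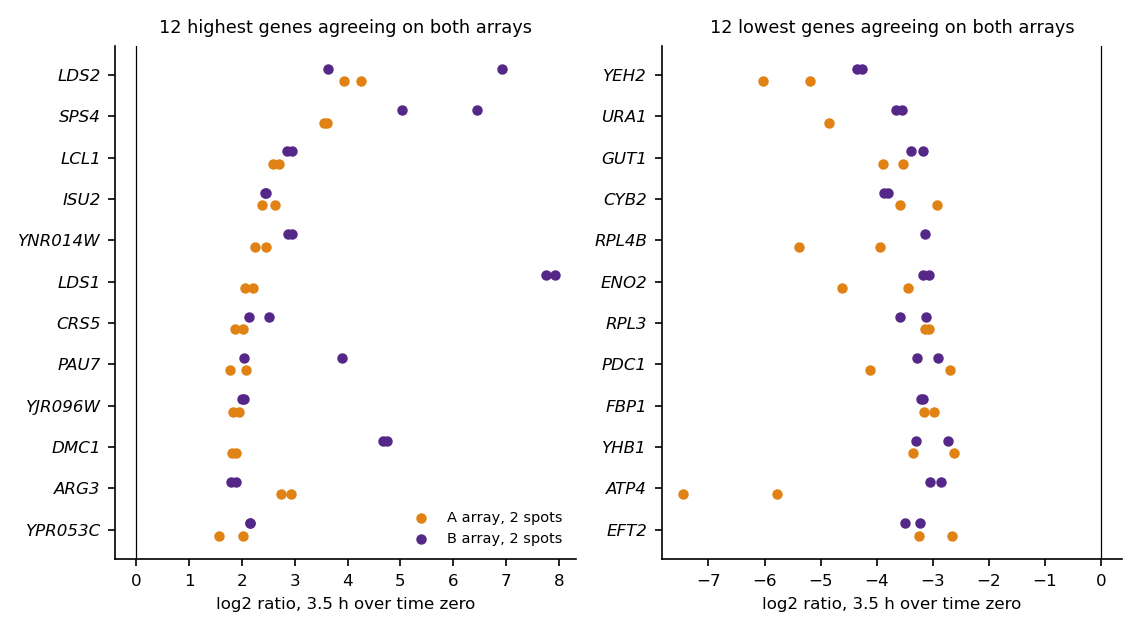
Points are log2 ratios of 3.5 h over time zero at single spots, orange for the A array and purple for the B array, for the 12 genes highest and the 12 lowest on both arrays. Spots of an array lie close together for DMC1 and ISU2 and far apart for LDS2 on B (3.64 and 6.92) and for ATP4 on A (-5.77 and -7.46), while LDS1 and DMC1 are higher on B than on A at every spot.

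Averaged over both arrays, glycolysis had the lowest median of the 26 gene lists at 3.5 h, at -2.01. Of its 17 genes, 15 had ratios on both arrays, with a median of -0.97 on A and -3.05 on B, beside -0.00 and 0.02 over all genes. At least 2-fold lower on both arrays were 7 of the 15, and 4 of them had time-zero RNA above the blanks on both, against 3.48% of all genes. None was higher on both arrays, and 6 more were lower on B without A. ENO2, an enolase, had spots at -3.44 and -4.62 on A and at -3.07 and -3.17 on B. ENO1, the other enolase, had spots at -2.02 and -2.17 on A and at -3.20 and -3.25 on B. PFK1, the alpha subunit of phosphofructokinase, stood at -1.13 on A and -3.27 on B. It was unmeasured at 3.5 h on both arrays, and its 2-array mean was 3.93-fold lower against the lowest measurable signal. HXK1, a hexokinase, stood at -1.02 and -1.20 and was measured in all 4 channels.

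Other glycolytic genes were at least 2-fold lower on B without reaching that limit on A. PGK1, the phosphoglycerate kinase, stood at -0.97 on A and -3.05 on B, below 0 on both. The phosphofructokinase beta subunit gene PFK2 stood at 0.36 and -2.90, and TPI1, the triose phosphate isomerase, at 0.46 and -2.36, both measured in all 4 channels. For PFK2 and TPI1 the arrays gave opposite signs. Enolase genes are near-identical copies that can share signal on such arrays, as are PDC1 and PDC5, EFT1 and EFT2, and HXT6 and HXT7, and how much they did was not tested.

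The fermentation list had 4 of 13 genes lower on both arrays (all genes 4.1%), 2 of them with measured time-zero RNA (all genes 3.48%). None was higher (all genes 1.76%). PDC1, the main pyruvate decarboxylase, had spots at -4.13 and -2.70 on A and at -3.29 and -2.91 on B. ADH2, the alcohol dehydrogenase that consumes ethanol, stood at -1.89 on A and -2.45 on B. The list's medians were -0.02 on A and -2.13 on B. Among 19 hexose transporter genes, HXT7, a high-affinity carrier, was the 1 that agreed (lower over all genes 4.1%), at -1.89 and -2.52. Its near-identical neighbour HXT6 stood at -0.18 and -2.57, and HXT2, another high-affinity carrier, at -2.29 and -0.87.

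Some genes for growth on acetate were lower at 3.5 h. In the list of acetate use, the glyoxylate cycle and gluconeogenesis, 5 of 17 genes were lower on both arrays (all genes 4.1%). All 5 had measured time-zero RNA (all genes 3.48%), and none was higher (all genes 1.76%). ICL1, the isocitrate lyase of the glyoxylate cycle, had spots at -1.84 and -1.65 on A and at -3.01 and -3.13 on B, and was measured in all 4 channels. IDP2, a cytosolic isocitrate dehydrogenase, stood at -1.69 on A and -2.93 on B. ACS1, the acetyl-CoA synthetase of nonfermentative growth, stood at -3.16 on A, where its spots were at -4.31 and -2.00, and at -1.10 on B. The list's medians were -1.0 and -0.89, although 3 genes were lower on A without B and 3 on B without A. The median of the 2-array mean was -1.13, and it was -2.46 with median centring and -2.05 with blank levels subtracted. In the tricarboxylic acid cycle, 2 of 15 genes agreed, both lower (all genes 4.1%). ACO1, the aconitase, stood at -2.33 and -3.84, and KGD1, a subunit of the 2-oxoglutarate dehydrogenase, at -2.09 and -2.59. Both signs were below 0 for 13 of the 15, and the list's medians were -1.36 on A and -0.67 on B.

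The respiratory chain held the largest share of agreeing falls among lists of more than 30 genes. At least 2-fold lower on both arrays were 12 of 32 genes, all 12 with measured time-zero RNA, beside 3.48% of all genes, and none was higher. The list's median was -1.21 on A and -0.87 on B. ATP4, subunit b of the ATP synthase stator, had spots at -5.77 and -7.46 on A and at -3.06 and -2.85 on B. ATP5, another stator subunit, stood at -4.71 on A and -1.88 on B. COX4, a subunit of cytochrome c oxidase, stood at -2.06 and -2.22, and RIP1, the Rieske iron-sulphur protein of the cytochrome bc1 complex, at -2.18 and -1.73. QCR2, a core subunit of the same complex, was measured in all 4 channels and stood at -1.71 and -3.10. Some members went the other way: CYC7, the minor cytochrome c isoform, stood at 0.79 and 1.63, and COX5B, the hypoxic isoform of a cytochrome c oxidase subunit, at 0.68 and 0.87. The list's median stayed below 0 with blank levels subtracted (-0.69) and in genes above the blanks (-1.58). With median centring it was -2.01, but that setting leaves in the fall of ratios with brightness. It therefore cannot test the direction of the list.

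**Figure D3:**
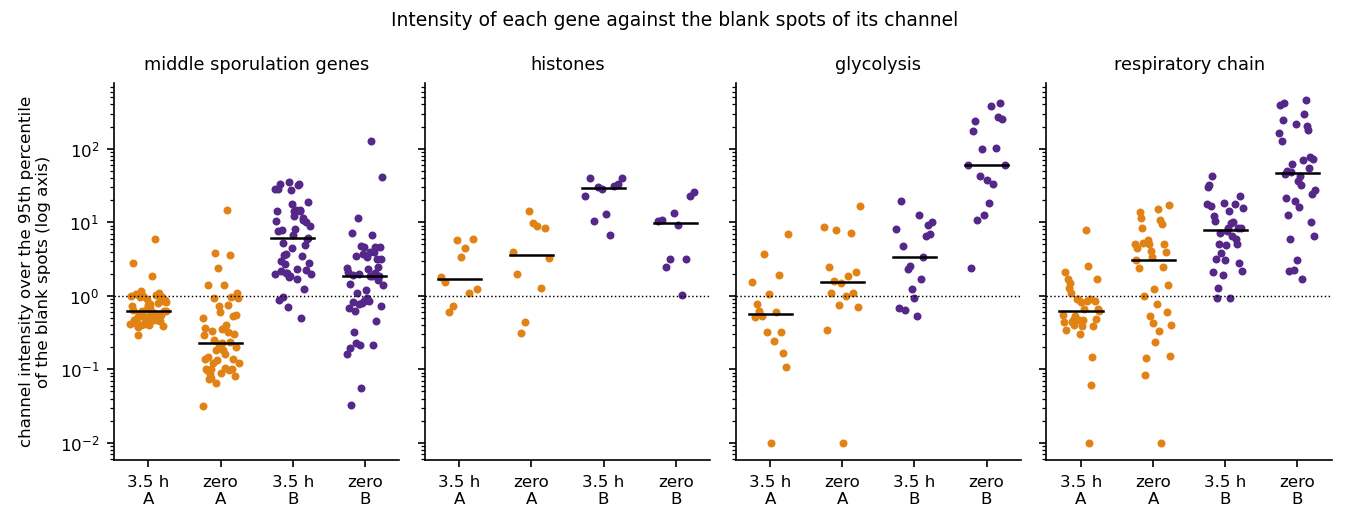
Each point is 1 gene's intensity in a channel divided by the 95th percentile of that channel's blank spots (log axis), for 4 gene lists, with values too low for the axis drawn at its foot, the dotted line at the blank limit and black bars at medians. Most middle sporulation genes lie under the line in both A channels and above it in the 3.5 h channel of B, where 46 of 50 were above the blanks, against 9 on A.

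Few genes of the protein synthesis machinery passed on both arrays. Of 132 cytosolic ribosomal protein genes, 9 were lower on both arrays (all genes 4.1%), 7 of them with measured time-zero RNA (all genes 3.48%), and none was higher. These shares are near those of all genes. RPL3, a protein of the large subunit, had spots at -3.07 and -3.14 on A and at -3.12 and -3.58 on B. RPL4B stood at -4.67 and -3.13, and its 3.5 h RNA was unmeasured on both arrays. Its 2-array mean was 5.55-fold lower against the lowest measurable signal. RPS3, a protein of the small subunit, stood at -2.50 and -2.17. The list's median was 0.19 on A and -0.97 on B, which differ in sign, so the list as a whole has no direction at 3.5 h. EFT2, which encodes elongation factor 2, stood at -2.94 and -3.36.

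In ribosome biogenesis 8 of 63 genes were lower on both arrays (all genes 4.1%), 6 of them with measured time-zero RNA (all genes 3.48%). None was higher (all genes 1.76%). CBF5, the pseudouridine synthase of box H/ACA particles, stood at -1.42 on A and -3.12 on B. NOP56 and NOP58, core proteins of box C/D particles, stood at -1.48 and -2.85 and at -1.32 and -2.18. NOP4, needed for the large subunit, stood at -1.53 and -1.19. RPC40, a subunit shared by RNA polymerases I and III, was the 1 agreeing gene of 20 in its list (all genes 4.1%), at -1.98 and -1.19. The medians of these lists were -0.05 and -0.33 for ribosome biogenesis and -0.25 and -0.10 for the polymerase subunits. For the polymerases the mean of both arrays turned to 0.30 with median centring.

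Of 37 genes for heat shock and general stress, 2 were higher on both arrays (all genes 1.76%) and 4 lower (all genes 4.1%), 3 of the 4 with measured time-zero RNA. GRE1, a hydrophilin induced by stress, had spots at 1.57 and 1.45 on A and at 1.53 and 1.54 on B. HSP12, a membrane-bound small heat shock protein gene, was the other higher gene, at 1.08 and 2.76. Lower were the chaperone genes SSE1, at -2.04 and -2.06, and HSP78, at -4.24 and -1.38, and the cell wall protein gene HSP150, at -1.81 and -3.36.

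The arrays differed widely on meiotic genes. Among 9 markers of meiotic prophase the median was 0.34 on A and 2.23 on B, and 3.5 h RNA was above the blanks for 2 of them on A and for all 9 on B. Among 9 markers of the divisions and spore formation the median was 0.53 on A and 3.65 on B, with 1 and 7 above the blanks. Markers of vegetative cells had medians of -0.24 and -0.63, with 0 of 10 above the blanks on A. Haploid markers had medians of 0.49 and 0.55, with 2 of 11 above the blanks on both arrays. The label of a sporulating culture therefore rests on the B array for most of these genes.

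Of the regulators, NDT80 had spots at 0.05 and 1.00 on A and at 3.58 and 3.73 on B, with its 3.5 h RNA above the blanks on B alone and its time-zero RNA on neither. IME2 stood at 0.02 and 3.06. IME1 stood near 0 on both arrays, at -0.26 and -0.04, and was measured in all 4 channels. AMA1, the meiotic activator of the anaphase-promoting complex, was past 2-fold on both arrays, at 1.18 and 3.12, but above the blanks on B alone. SIC1, an inhibitor of cyclin-dependent kinase, was the 1 measured regulator that agreed, at -1.18 and -2.05, with spots at -1.17 and -1.19 on A and at -2.24 and -1.86 on B.

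The other regulators did not pass on both arrays. CDC28, the cyclin-dependent kinase, stood at -0.37 and 2.29, and its partner CKS1 at 0.19 and 0.99. RME1, the repressor of meiosis in haploid cells, stood at -0.84 and 1.76, and RIM11, a kinase that acts on Ime1, at -1.30 and 0.37. CDC5, the polo kinase, stood at 0.87 and 1.62, CDC20, which activates the same complex as Ama1, at 0.18 and 1.11, and RIM4, a meiotic RNA-binding protein, at 0.42 and 1.05. UME6, a repressor and Ime1 partner, stood at -0.47 and 1.08, and SUM1, the repressor of middle genes, at -0.60 and -0.27. CDC7 and its activator DBF4 stood at 0.89 and 0.32 and at 0.38 and 0.09. SIN3 and RPD3, of the histone deacetylase complex, stood at -0.29 and -0.95 and at -0.48 and -0.83. The kinase genes RIM15, MCK1 and SWE1 stood at 0.11 and -0.92, at 0.35 and -0.32 and at 0.03 and -0.99. RIM101 stood at 0.04 and -0.82, IME4, the RNA methyltransferase, at 0.52 and 0.56, and HFI1, of the SAGA complex, at 0.63 and 0.72. Median centring turned the list's median from 0.38 to -0.20.

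In meiotic recombination and synapsis, 4 of 39 genes were higher on both arrays (all genes 1.76%), 2 of them with measured 3.5 h RNA (all genes 1.37%). None was lower (all genes 4.1%). Those 2 were DMC1 and SPO22, which belongs to the synapsis initiation complex and stood at 1.17 and 1.45. REC114 and MEI5, which act in break formation and with Dmc1, stood at 1.06 and 2.75 and at 1.09 and 4.83, with the 3.5 h RNA measured on B alone. On B 24 of the 39 were at least 2-fold higher (all genes 952 of 6266), 20 of them without reaching that limit on A. The chromosome axis gene HOP1, for example, stood at 0.34 and 6.04. Of 22 cohesion and kinetochore genes, CSM1 of the monopolin complex was the 1 measured gene that was higher (all genes 1.37%), at 1.18 and 2.55. The kinetochore genes NUF2 and SPC25 stood at -1.17 and 2.62 and at 0.02 and 1.66.

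Middle sporulation genes were higher on both arrays in 4 of 50 cases (all genes 1.76%), 2 of them with measured 3.5 h RNA (all genes 1.37%). On B 40 of 50 were at least 2-fold higher (all genes 952 of 6266), and on A 5 of 50 (all genes 378 of 6266). The median was 0.26 on A and 2.62 on B. SPS4 was described above. CRR1, a putative spore wall glycoside hydrolase, was measured in all 4 channels and had spots at 1.53 and 1.64 on A and at 3.63 and 4.04 on B. SMK1, the spore wall MAP kinase, stood at 1.02 and 4.84, measured at 3.5 h on B alone. Of 19 spore wall and mid-late genes, none with measured RNA agreed (all genes 1.37% higher and 3.48% lower), and SPS100 stood at 0.07 and 1.12.

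Histone genes showed the same split between the arrays. All 10 were at least 2-fold higher on B, with a median of 2.92, and none was on A, with a median of 0.31. HHF2, a histone H4 gene, had spots at 0.73 and 0.50 on A and at 4.57 and 4.62 on B, and HTA2, a histone H2A gene, stood at 0.86 and 3.54. In the 3.5 h channel of A 8 of 10 were above the blanks, with HHF2 at 1.08 times and HTA2 at 1.54 times the blank limit, and on B all 10 were. Of 49 DNA replication genes, 3 measured ones were lower (all genes 3.48%) and none higher (all genes 1.37%). Without the condition on blanks, 1 was higher on both arrays. The list's medians were 0.06 on A and 0.29 on B, with 20 genes above 0 on both arrays and 13 below 0 on both. RNR4, a ribonucleotide reductase subunit, stood at -2.25 and -2.46. Its 2-array mean was 2.97-fold lower against the lowest measurable signal. TAH11, which helps to load the replicative helicase, stood at -1.38 and -1.63, and MCM7, a subunit of that helicase, at -1.69 and -1.09.

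**Figure D4:**
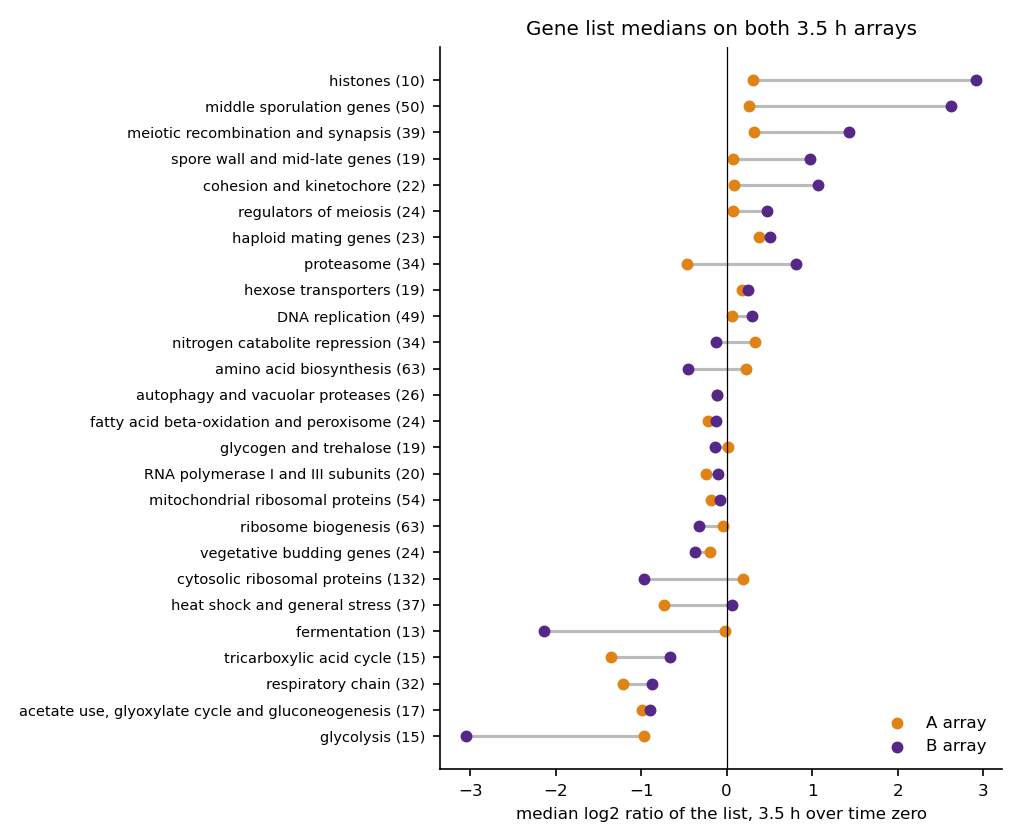
For each of the 26 gene lists (number of genes with both ratios in brackets), the median log2 ratio of 3.5 h over time zero is shown on the A array (orange) and the B array (purple). Histones and middle sporulation genes are higher on B, at 2.92 and 2.62, than on A, at 0.31 and 0.26, while the respiratory chain and acetate lists sit below 0 on both arrays.

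Of 34 genes under nitrogen catabolite repression, 3 were higher on both arrays (all genes 1.76%) and 2 lower (all genes 4.1%), and the lower share is near that of all genes. MEP2, the high-affinity ammonium permease, had spots at 3.77 and 4.11 on A and at 1.46 and 1.44 on B. GAT1, a GATA activator, stood at 1.45 and 1.60. PUT4, the proline permease, stood at -4.49 and -2.51, and GDH2, the glutamate dehydrogenase that uses NAD, at -2.75 and -1.17. Among 63 amino acid biosynthesis genes, ARG3 was the 1 that agreed (all genes 1.76% higher and 4.1% lower). MET3, the ATP sulphurylase, stood at 2.32 and 0.50, and LYS1, of lysine synthesis, at 2.24 and 0.56. None of 34 proteasome genes agreed (all genes 1.76% higher and 4.1% lower), and their median was -0.47 on A and 0.81 on B.

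The next comparison asked where 3.5 h stood apart from its neighbours. A limma fit to all 12 samples, with 3.5 h and 0.0 h as groups of 1 sample assumed to vary like the others, put 3.5 h against the mean of 2.5, 4.0 and 4.5 h. These samples share the time-zero RNA. With Benjamini-Hochberg adjustment at 5%, 1 of 6283 genes was called (0.0159%), and 452 had an unadjusted p under 0.05, of which 158 were higher (2.51%) and 294 lower (4.68%). The called gene was PDC1, whose values were -3.41 and -3.10 on the arrays of 3.5 h. At 2.5 h they were 0.64 and 1.49, at 4.0 h 1.45 and 0.48, and at 4.5 h 1.33 and 1.28. All 6 neighbouring arrays thus put PDC1 above time zero and both 3.5 h arrays below it. The difference was -4.37 ± 0.59 (SE, 1 sample against 3; limma adjusted p = 0.0438). The call was lost without any 1 of the 2.5, 4.0 and 4.5 h samples, while over 16 alternatives the difference lay between -4.95 and -3.58 and the limma adjusted p between 0.00484 and 0.442. At 3.5 h PDC1 was above the blanks on B alone, so its low A value is not an exact level.

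No other gene passed. ENO2 differed from the neighbours by -4.03 ± 0.59 (limma adjusted p = 0.0517) and ATP4 by -3.37 ± 0.55 (limma adjusted p = 0.0779). Both were above the blanks at 3.5 h on B alone, so the sizes, which average in the A array, are not exact. PFK1 was above the blanks on neither array at 3.5 h, and no exact difference is given (limma adjusted p = 0.0812). PHB1, a mitochondrial prohibitin, stood at -4.43 and -1.02 at 3.5 h and PGK1 at values given above. CTS1, the chitinase of cell separation, stood at -4.17 and -1.69, with neighbour means between -0.18 and 0.40. YHR130C stood at -0.89 and -3.40. Of 15 glycolytic genes with both ratios, 10 had an unadjusted limma p under 0.05 and all 10 were lower, against 4.68% of all genes. The neighbours' glycolysis medians were 0.58 at 2.5 h, 0.36 at 4.0 h and 0.59 at 4.5 h. Earlier samples were below 0, at -1.17, -1.27, -1.57 and -0.47 at 0.5, 1.0, 1.5 and 2.0 h. So were later ones, at -0.65, -1.31 and -0.81 at 5.0, 5.5 and 6.0 h. The B arrays of 5.0 and 5.5 h had medians of -2.99 and -3.03, beside -3.05 on B at 3.5 h. Their A arrays had medians of 0.76 and -0.01, beside -0.97 on A at 3.5 h.

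On the higher side, LDS2 exceeded the mean of its neighbours by 3.47, which is not exact because its time-zero RNA was unmeasured on the 3.5 h arrays. Its neighbours gave 0.90 and 0.37 at 2.5 h, 5.29 and 0.15 at 4.0 h and 0.41 and 0.20 at 4.5 h. The A array of 4.0 h thus lay above the 4.09 of the A array of 3.5 h. ZIM17, a mitochondrial import factor, stood at 1.75 and 1.80 at 3.5 h, with neighbour means between -0.30 and 0.28. MTM1, a mitochondrial carrier protein, stood at 1.14 and 1.38, and GTT3 at 1.18 and 2.53. PIH1, of the R2TP chaperone complex, stood at 0.96 and 2.50, and YPR027C at 1.09 and 3.76. The proteasome genes PRE6 and UMP1 stood at 0.58 and 1.31 and at -0.07 and 1.82. None of these 8 genes passed after adjustment.

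Set against the 0.0 h sample, 1 of 6283 genes passed the adjusted limma threshold (0.0159%). Before adjustment 405 had a p under 0.05, of which 131 were higher (2.08%) and 274 lower (4.36%). The called gene was ATP4, at -5.02 ± 0.68 (SE, 1 sample against 1; limma adjusted p = 0.0457). That call was lost when any 1 of the 8 samples from 0.5 to 2.5 h and from 4.0 to 5.0 h was left out, and over 24 alternatives the difference lay between -6.85 and -2.94 and the limma adjusted p between 0.000542 and 1.00. The size is not exact, since ATP4 at 3.5 h was above the blanks on B alone and its A signal was 0.06 times the blank limit. On the A array of 0.0 h, time-zero RNA against itself, ratios had an SD of 0.55 across genes, against 0.27 on B.

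**Figure D5:**
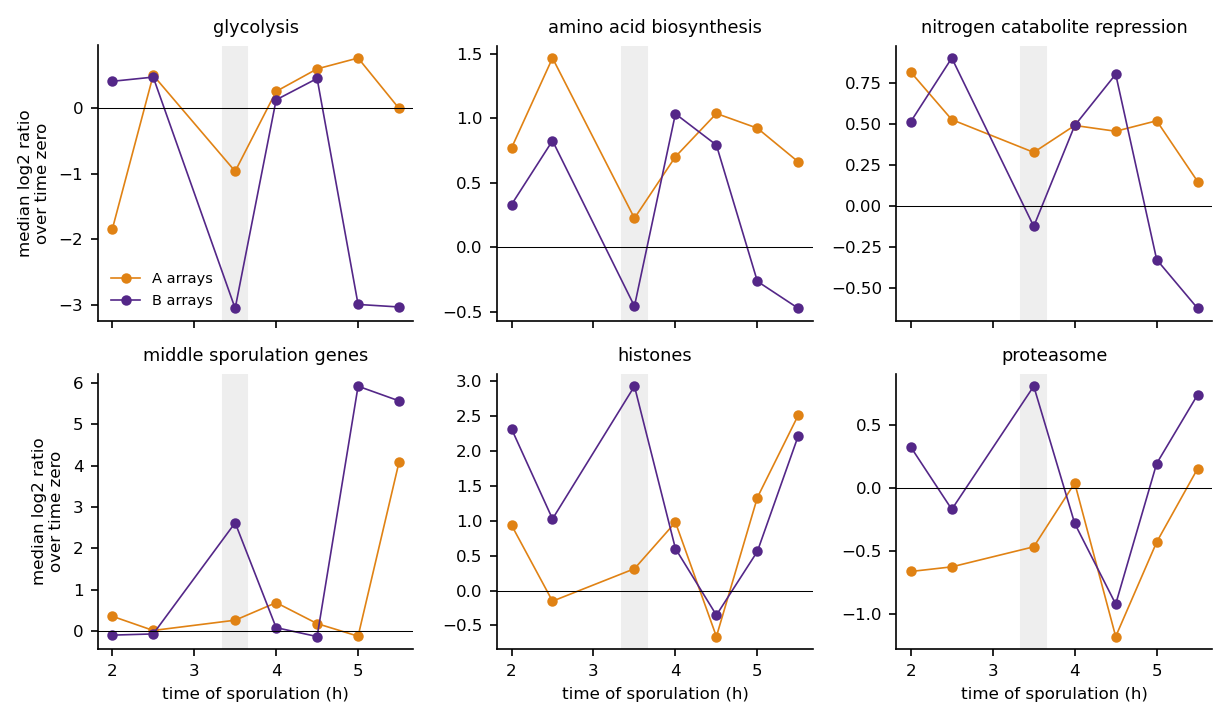
Median log2 ratios over time zero of 6 gene lists are plotted by time of sporulation (h), with lines joining A arrays (orange) and B arrays (purple) and 3.5 h shaded. At 3.5 h glycolysis is at -0.97 on A and -3.05 on B between neighbours above 0, and the middle sporulation genes are at 2.62 on B and 0.26 on A.

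Genes with strong signal in all 4 channels could oppose each other on the 2 arrays, with both spots of each array close together. MET6, the methionine synthase, had spots at 2.17 and 2.02 on A and at -1.35 and -1.58 on B. Its neighbours gave 2.59 and 4.14 at 2.5 h, 3.63 and 2.53 at 4.0 h and 3.60 and 2.60 at 4.5 h, and the later samples 4.67 and -0.31 at 5.0 h and 2.40 and -1.64 at 5.5 h. The A value of 3.5 h lay on the same side of 0 as the A arrays of all these times. The B value lay on the side of the B arrays of 5.0 and 5.5 h and opposite to those of the neighbours. Which RNA each array carried was not tested. MET17, the O-acetylhomoserine sulphhydrylase, stood at 2.51 and -1.18, with 3.98 and 2.60 at 2.5 h and 2.28 and -2.68 at 5.5 h.

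PMA1, the plasma membrane proton pump, stood at -0.49 on A and -4.27 on B, with 1.32 and 0.96 at 4.5 h and 0.39 and -4.96 at 5.5 h. ERG1, the squalene epoxidase, stood at 0.39 and -3.41, and ALD6, the cytosolic acetaldehyde dehydrogenase, at 0.38 and -3.83. In the other direction, the copper metallothionein genes CUP1-1 and CUP1-2 stood at -2.13 and 2.32 and at -1.97 and 2.02. CBC2, a subunit of the nuclear cap-binding complex, stood at -0.35 and 3.20, and SPR6, a sporulation gene, at 0.48 and 3.73. Whether dye, hybridisation or RNA sets these values apart was not tested.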

How the data were processed

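The authors deposited spot intensities of both dyes and of the local background for every array. Some intensity values are negative, so they were treated as already background-subtracted, which the files do not state. The authors' deposited table holds log2 ratios of unstated normalisation; its scale, centring and direction were read from the values, and the 3.5 h column had a median of -0.01. Each array has 13056 spots, 12614 of them for genes. Control spots, spots marked U or Z and values at or below 0 were left out. Log2 ratios were corrected by loess (span 0.3, 4 iterations), B arrays turned by sign and the 2 spots averaged. The number of arrays limits the precision. Symbols came from a RefSeq gene table (5716 by locus tag, 18 by older name); 559 identifiers kept the array's name.

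R 4.3.3 and limma 3.58.1 fitted means for 0.0 h, early, 3.5 h, other middle and late samples (7 residual degrees of freedom). The fit was also run on simulated data in which every sample had the fitted spread. That run cannot test whether the lone samples vary like the others. P-values measure the spread between times within the early, other middle and late groups. That spread includes real change with time and holds no replicate samples. The members, gene lists and tests were chosen with earlier results of these data known. Named genes were the 12 highest and 12 lowest agreeing genes by the smaller array value, up to 4 per list, all regulators, 8 each way against the neighbours and 5 each way by disagreement between arrays. Fold values against the lowest measurable signal set the measured RNA, averaged over both arrays, against the lowest signal above the blanks. They are not limits for each array. Alternatives covered normalisation, background, marked spots, fold limits, detection, single arrays, samples left out and the authors' deposited table.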

Additional observations from a re-analysis of the deposited data

How the results depend on the processing

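The counts of 86 higher and 218 lower agreeing genes became 7 and 887 with median centring, which kept 6 of the 86 and 213 of the 218, and 355 and 434 in the authors' deposited table, whose values do not separate the arrays. They became 214 and 422 at 1.5-fold, 6 and 45 at 4-fold, 267 and 573 on the A array alone and 861 and 823 on the B array alone. Subtracting the blank level, chosen after seeing the data, gave 110 and 235, with 83 of the 86 and 138 of the 218 measurable under it and all of these kept. The limma call against 0.0 h was 1 gene and became 0 with median centring, normexp, spots marked S left out, B arrays alone, the authors' deposited table or blank levels subtracted (unadjusted counts between 222 and 623 where planned, 160 with blank levels subtracted). It became 2 with scaling between arrays, with A arrays alone and with 0.0 h from its B array, and 20 when set against 0. With 3.5 h taken from B alone it became 37 and from A alone 24. Leaving out samples gave 0 to 1 (unadjusted counts 354 to 483). The call against the other middle samples became 0 with median centring, spots marked S left out, B arrays alone and 2.5 and 4.0 h as the neighbours (unadjusted limma counts between 396 and 803). It became 2 with normexp, genes above the blanks, A arrays alone and blank levels subtracted, and 5 with all marked spots kept. With 3.5 h from B alone it became 123 and from A alone 29; leaving out samples gave 0 to 0 (unadjusted counts 306 to 458). The respiratory chain median was -2.01 with median centring, -0.69 with blank levels subtracted, -1.21 on A alone and -1.58 in genes above the blanks. On the A array alone the cytosolic ribosomal protein median turned from -0.51 to 0.19, and the medians of histones and middle sporulation genes went from 1.65 and 1.52 to 0.31 and 0.26; with B alone they were 2.92 and 2.62. The cause of each shift was not tested. The A array, with 25.2% of genes above its blanks at 3.5 h, limits what both arrays can agree on. No paired analysis was possible because each time is 1 sample and the labels give no replicate numbers.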

Other observations

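Other gene lists held few agreeing genes at 3.5 h, where 1.76% of all genes were higher on both arrays and 4.1% lower. Of 26 autophagy and vacuolar protease genes, 3 were lower on both arrays and none higher, beside 3.48% of all genes. These were the aminopeptidase gene APE1, at -1.56 on A and -1.75 on B, LAP3, a cysteine aminopeptidase of the vacuole and cytosol, at -1.88 and -1.53, and ATG5, of the autophagy conjugation system, at -2.06 and -1.27. Of 24 genes for fatty acid beta-oxidation and peroxisomes, IDP3, the peroxisomal isocitrate dehydrogenase, was the 1 that agreed, at -1.25 and -2.07, and CTA1, the peroxisomal catalase, stood at -2.20 and -0.92. Of 54 mitochondrial ribosomal protein genes, MRP7 was the 1 that agreed, at -2.39 and -1.77. Of 19 glycogen and trehalose genes, GLC3, the glycogen branching enzyme, was the 1 that agreed, at -1.87 and -1.46, while SGA1, the sporulation-specific glucoamylase, stood at 0.60 and 3.53. Of 23 haploid mating genes, STE4, the G protein beta subunit of the pheromone pathway, was the 1 that agreed, at 1.36 and 2.41. Of 24 vegetative budding genes, 3 were lower on both arrays, among them CTS1 and the G1 cyclin gene CLN3, at -1.26 and -3.99.

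The genes that agreed at 3.5 h had the following medians at other times, with the time-zero RNA shared by all of them. The 86 higher genes stood at 1.66 at 3.5 h. Their medians were 0.19, 0.91, 1.08 and 1.19 at 0.5, 1.0, 1.5 and 2.0 h, then 0.46, 0.32 and 0.52 at 2.5, 4.0 and 4.5 h, and 0.48, 1.17 and 1.08 at 5.0, 5.5 and 6.0 h. The 218 lower genes stood at -1.87 at 3.5 h. Their medians were -0.65, -1.21, -1.26 and -0.72 at 0.5, 1.0, 1.5 and 2.0 h, then -0.34, -0.50 and -0.74 at 2.5, 4.0 and 4.5 h, and -0.88, -1.17 and -0.68 at 5.0, 5.5 and 6.0 h. No test was made of these medians, since the genes were chosen by their 3.5 h values.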
